A study of Mus musculus with 8 samples.

Results

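A set of 34 cell cycle and DNA replication genes was followed in small intestines of ApcMin/+ mice. These mice have 1 truncated copy of Apc, a tumour suppressor gene. The genes were given by name, with no threshold on their signal, and all 34 were among the 21303 genes tested. They were split by role into 14 genes of S phase, in which DNA is copied, and 20 genes of mitosis, in which the copied chromosomes are separated. Ccna2, which acts in both, was counted with mitosis. All mice were of the strain C57BL/6J Min/+, and there was no group with wild-type Apc. The control groups (Control male, Control female) received the unmodified semisynthetic AIN-93G diet. The Western groups (Western male, Western female) received a modified AIN-93G diet that was rich in fat and poor in fibre, calcium, vitamin D and folate. In that diet milk supplied 66.4% of the fat and plant oils 33.6%. The labels give 18 months of feeding and 1 to 3 mice per array, and there were 2 single-colour microarrays per group, 8 in all. The labels do not say whether the 2 arrays of a group hold different mice, and the p-values reflect just the scatter among these arrays, which may be partly technical. They also do not say whether adenomas were part of the tissue.

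In the intestinal epithelium cells divide in the crypts and stop dividing as they move onto the villi, so transcripts of the cell cycle come mostly from crypt cells and, in ApcMin/+ mice, from adenomas. Before S phase, cyclin E and its kinase release E2f transcription factors from the retinoblastoma protein, and E2f factors switch on genes of DNA replication. Genes of mitosis are switched on later by the MuvB complex with B-Myb and Foxm1, which acts through the CHR promoter element, often beside CCAAT boxes bound by NF-Y. In bulk tissue, fewer dividing cells and less RNA per dividing cell cannot be told apart.

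Array quality was taken from the scanner files. The 75th percentile of the signal ranged from 488.2 to 907.1, and 55.1% to 61.9% of probes were well above background on 7 arrays, while Control female 2 had 75.6%. Any 2 arrays correlated across genes with r of 0.942 to 0.990. The Y-linked helicase gene Ddx3y had log2 levels of -1.05 to -0.68 in males, -7.57 to -6.91 on 3 female arrays and -0.46 for the library labelled Control female 1. That library therefore carried Y-linked transcripts like the male arrays, and the name of its deposited file carries the abbreviation used for the Western-diet files. Which diet and sex it holds cannot be settled here, and the diet values below take it as control. It was kept as labelled, and the counts of genes for diet, for diet in females and for sex are given without it too. The tissue label was borne out by 12 of 12 epithelial markers, such as Epcam and Vil1, which were well above background on all 8 arrays. Control male 1 stood apart in smooth muscle and fibroblast markers, at 2.99 and 2.24 log2 units above the mean of the 8 arrays, whereas the other arrays ranged from -1.23 to 0.15 and from -0.83 to 0.54.

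Promoter motifs were counted in both sets. RefSeq promoter windows (GRCm38.p6, 250 bases before to 50 after the start) were matched for 29 of the 34 genes, with 14 windows for 13 S-phase genes and 16 for as many mitosis genes. An E2F motif (TTTGGCGC, TTTCCCGC or TTTCGCGC on either strand) lay in 5 of 14 S-phase windows (35.7%), in 1 of 16 mitosis windows (6.25%) and in 1.84% of all 32851 windows. The 5 S-phase windows belonged to Mcm3, Mcm5, Mcm6, Mcm7 and Cdc6. The CHR motif (TTTGAA on either strand) lay in 11 of 16 mitosis windows (68.8%), in 1 of 14 S-phase windows (7.14%) and in 17.9% of all windows. Each of these 11 windows also held CCAAT on either strand. Both motifs thus lay in 68.8% of mitosis windows, 7.14% of S-phase windows and 6.95% of all windows. With or without CHR, CCAAT lay in 87.5% of mitosis windows, 64.3% of S-phase windows and 37.4% of all windows. For each set 2 genes are shown as examples of these motifs. A match is a description of letters and not a test of binding.

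Below, the 250 bases before the start of Mcm5 (chr8:75109259-75109508 on the plus strand) and Mcm6 (chr1:128359706-128359955 on the minus strand) have E2F motifs in capitals.
Mcm5: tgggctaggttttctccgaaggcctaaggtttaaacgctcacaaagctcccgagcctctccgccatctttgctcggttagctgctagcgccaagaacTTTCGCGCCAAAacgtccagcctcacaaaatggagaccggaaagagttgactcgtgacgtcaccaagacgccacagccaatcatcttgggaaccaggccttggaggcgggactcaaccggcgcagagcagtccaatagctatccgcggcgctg
Mcm6: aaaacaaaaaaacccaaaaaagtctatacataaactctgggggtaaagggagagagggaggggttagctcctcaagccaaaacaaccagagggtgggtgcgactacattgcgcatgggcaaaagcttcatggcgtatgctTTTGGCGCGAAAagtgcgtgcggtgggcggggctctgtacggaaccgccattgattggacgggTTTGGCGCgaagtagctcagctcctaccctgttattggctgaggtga
The 250 bases before the start of Top2a (chr11:99024190-99024439 on the minus strand) and Cdc20 (chr4:118437344-118437593 on the minus strand) have CHR and CCAAT motifs in capitals.
Top2a: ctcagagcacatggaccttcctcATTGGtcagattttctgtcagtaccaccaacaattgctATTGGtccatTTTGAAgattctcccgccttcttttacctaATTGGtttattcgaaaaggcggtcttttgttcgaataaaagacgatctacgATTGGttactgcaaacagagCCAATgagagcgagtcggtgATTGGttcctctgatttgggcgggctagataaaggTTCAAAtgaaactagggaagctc
Cdc20: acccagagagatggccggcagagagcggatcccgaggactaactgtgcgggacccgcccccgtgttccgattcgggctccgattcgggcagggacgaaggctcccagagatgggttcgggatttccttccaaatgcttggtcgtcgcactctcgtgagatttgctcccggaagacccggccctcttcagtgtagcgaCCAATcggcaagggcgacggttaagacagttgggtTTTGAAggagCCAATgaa
Top2a held 6 CCAAT and 2 CHR matches in this stretch, and Cdc20 held 2 CCAAT matches and 1 CHR match. Mcm5 held 2 overlapping E2F matches and Mcm6 held 3.

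Within groups the 34 genes differed between arrays, with the widest median gap in Western females. Levels are log2 signal relative to the 75th percentile of the array. On Western female 2 all 34 genes were above their level on Western female 1, whereas 45.7% of all genes were. Aurkb was not well above background on either array, so the order was measurable for 33 genes. The median gap between these arrays was 0.65 log2 units over the 34 genes, 0.62 for S phase and 0.72 for mitosis, with a range of 0.07 (Pcna) to 1.196 (Bub1b). Over all genes the median difference in the same direction was -0.05. The gap of these 2 arrays exceeded the diet difference for 33 of 34 genes, against 68.1% of all genes, and the widest gap within any group exceeded it for 34 of 34, a share near that of all genes (97.1%).

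**Figure D1:**
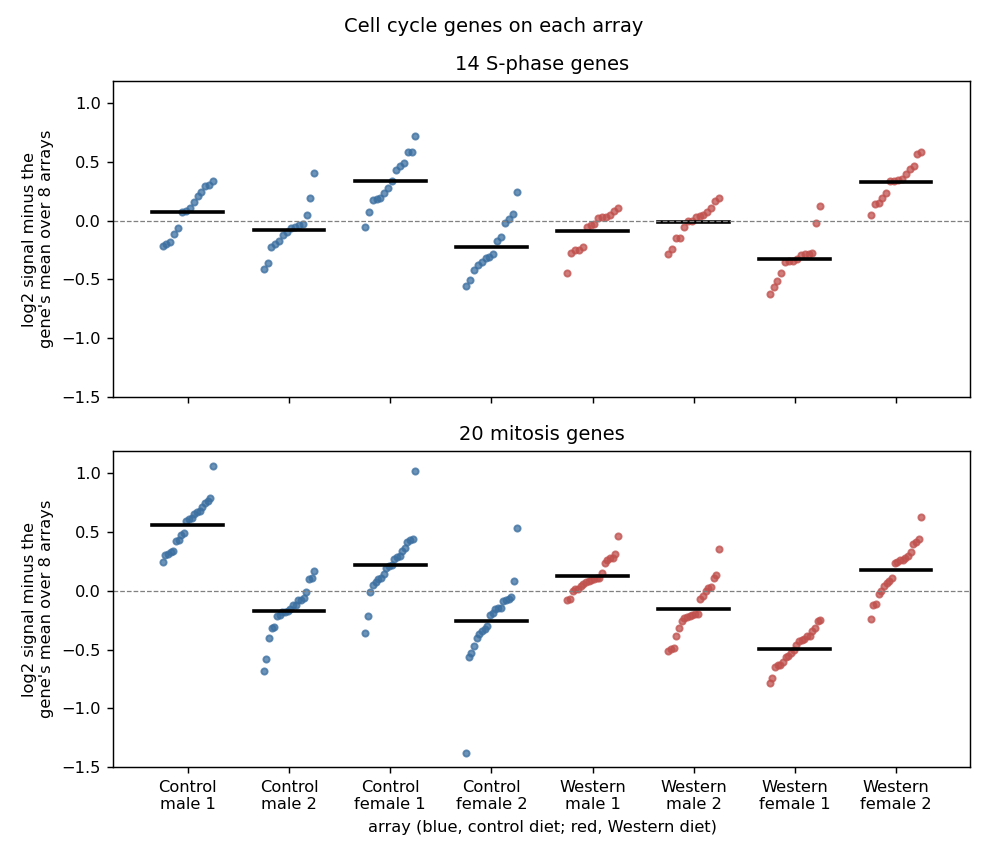
Log2 signal of each S-phase gene (upper panel) and mitosis gene (lower panel) minus its own mean over the 8 arrays, with arrays on the horizontal axis, blue points for control and red points for Western diet, and black bars for the mean of the set. The lowest means are on Western female 1 (-0.32 and -0.49), and the highest are on the library labelled Control female 1 for S phase (0.33) and on Control male 1 for mitosis (0.56).

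The arrays of the other groups differed as well. Control male 1 was above Control male 2 for 30 of 34 genes (54.3% of all genes), including 20 of 20 mitosis genes. The library labelled Control female 1 was above Control female 2 for 29 of 34 genes (40.2% of all genes). Western male 1 was above Western male 2 for 22 of 34 genes (45.2% of all genes), with 18 of 20 mitosis genes above and 10 of 14 S-phase genes below. Western female 1 was the lowest of the 8 arrays for 20 of 34 genes (9.76% of all genes), and Control female 2 for 8 (9.32%). Control male 1 was the highest for 18 of 34 genes (13.4% of all genes), of which 17 belonged to mitosis. Of the S-phase genes, Tyms alone was highest there, whereas 7 of 14 were highest on the library labelled Control female 1 (11.7% of all genes) and 5 on Western female 2 (11.2%).

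The S-phase and mitosis sets did not follow the same order of arrays. Relative to the mean of the 8 arrays, the mean of the S-phase genes was 0.33 on the library labelled Control female 1 and on Western female 2, 0.07 on Control male 1, -0.02 on Western male 2, -0.08 on Control male 2, -0.09 on Western male 1, -0.23 on Control female 2 and -0.32 on Western female 1. The mean of the mitosis genes was 0.56 on Control male 1, 0.22 on the library labelled Control female 1, 0.18 on Western female 2, 0.13 on Western male 1, -0.16 on Western male 2, -0.17 on Control male 2, -0.26 on Control female 2 and -0.49 on Western female 1. Mitosis exceeded S phase by 0.49 on Control male 1 and by 0.22 on Western male 1, whereas on the other 6 arrays the difference lay between -0.17 and -0.03. These 2 arrays also had the highest fibroblast marker means, 2.24 and 0.54. Other markers did not share this order. On Western male 1 smooth muscle markers had -0.42 and markers of neurons and glia -0.23. Endothelium markers had 0.30 there, below 0.37 on Western female 2. The part of these markers in the result was not tested.

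Markers of other cell types also differed between arrays, in part with the cell cycle genes. The mean of 12 enterocyte markers, such as Sis and Fabp1 of the villus, was highest on Western female 1 (0.49) and Control female 2 (0.41), where both cell cycle sets were lowest. It was -0.35 on Western male 1, -0.34 on Control male 1, -0.28 on Western female 2, -0.06 on the library labelled Control female 1, near 0 on Control male 2 and 0.13 on Western male 2. The 12 enterocyte markers did not all move together, with diet differences of -1.10 to 0.54 in females and -1.03 to 1.69 in males. The 4 measured Paneth cell markers, of the crypt base, had means of 0.33, -0.04, -0.04 and -0.25 on the control and -0.23, 0.25, -0.50 and 0.47 on the Western arrays (in the order male 1, male 2, female 1, female 2). The 11 measured crypt stem cell markers, such as Lgr5 and Ascl2, had 0.11, 0.03, -0.10 and 0.19 on the control and -0.10, -0.08, -0.27 and 0.23 on the Western arrays. Both sets were lowest on Western female 1 and highest on Western female 2, but the stem cell markers were second highest on Control female 2, where cell cycle means were low. The 12 general epithelial markers differed less, from -0.17 to 0.12 over the 8 arrays. B cell and germinal centre markers (9 measured, 3 of them well above background on all arrays) had their highest mean on Western female 1 (1.11), where the cell cycle genes were lowest. They did not move together, with diet differences in females from -2.24 to 3.03. Fat cell markers (4 measured, 2 of them well above background on all arrays) had 4.23 on Western female 2 and at most 0.79 elsewhere. The part of each of these cell types in the result was not tested.

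**Figure D2:**
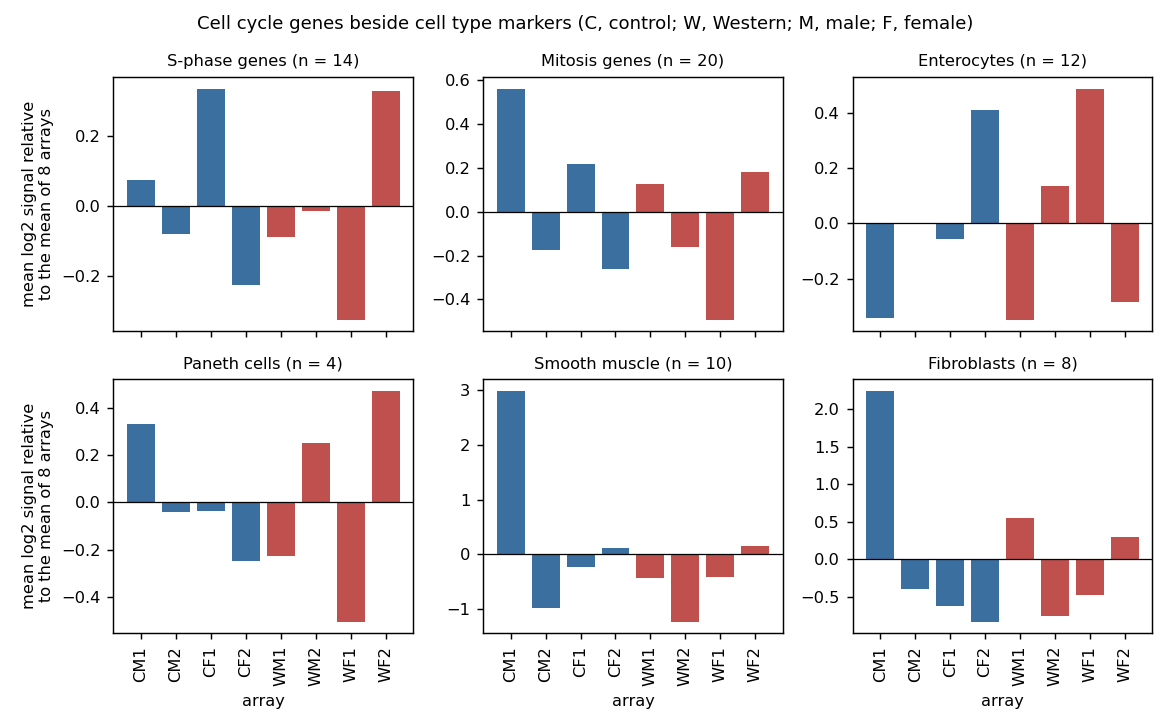
Mean log2 signal per array relative to the mean of the 8 arrays for the 2 cell cycle sets and 4 sets of cell type markers (C, control; W, Western; M, male; F, female; the vertical scales differ; n is the number of genes). Western female 1 has the lowest cell cycle means and the highest enterocyte mean (0.49), and Control male 1 stands out in smooth muscle (2.99) and fibroblast (2.24) markers.

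The first comparison of the design set the Western against the control diet. At an adjusted p of 0.05 (limma), 0 of the 34 were called, as were 0 of all 21303 genes (0%). At an unadjusted p under 0.05 there were 0 of 34 genes, against 4.35% of all genes. All 20 mitosis genes and 7 of 14 S-phase genes had lower means on the Western diet, 27 of 34 in all, against 60.2% of all genes. The median difference was -0.19 for mitosis (range -0.32 to -0.01), -0.01 for S phase (range -0.29 to 0.09) and -0.06 for all genes. The groups overlapped for every one of the 34 genes, whereas 2.35% of all genes lay wholly lower and 0.827% wholly higher on the Western diet. With the probes tested, no gene reached a 1.5-fold difference in either direction (with the mean of all probes Ccne1 did), against 12.3% of all genes lower and 1.75% higher. The 95% intervals of all 34 genes included 0, and 26 of them lay within 2-fold in both directions.

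These counts depended on the scaling and on single libraries. Quantile normalization put the median of all genes at 0.05, with 41.4% lower, and left 15 of 20 mitosis and 5 of 14 S-phase genes lower. Without Western female 1, 15 of 34 genes were lower (13 of mitosis and 2 of S phase), and without the library labelled Control female 1, 19 (15 and 4). Without Control male 1, 11 of 20 mitosis genes were lower, with a median of -0.015. Without Control male 1 and the library labelled Control female 1 together, 9 of 34 were lower (5 of mitosis and 4 of S phase). With these libraries left out, the share of all genes lower lay between 57.2% (without Control male 1) and 60.7% (without Western female 1). Other omissions raised the counts. Without Control male 2, 20 of 20 mitosis and 10 of 14 S-phase genes were lower (60.6% of all genes). Without Control female 2 or Western female 2, it was 20 of 20 and 12 of 14 each time (56.4% and 57.7% of all genes).

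**Figure D3:**
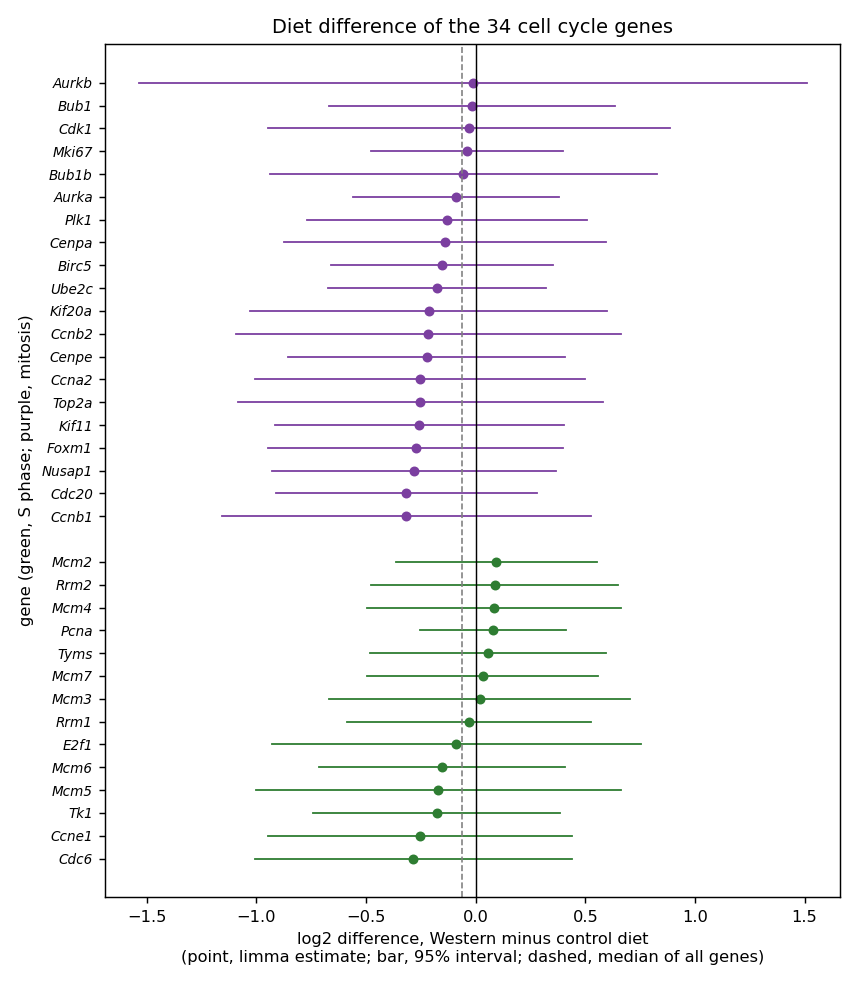
Log2 difference between the Western and control diet for each of the 34 genes, averaged over the sexes (horizontal axis; points are limma estimates, bars 95% intervals, the dashed line the median of all genes at -0.06), with S-phase genes in green and mitosis genes in purple on the vertical axis. Every bar crosses 0, and the mitosis points lie between -0.32 and -0.01.

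Among the S-phase genes, Mcm2 to Mcm7 encode the 6 subunits of the helicase that unwinds DNA at the replication fork. Mcm2 had log2 levels of -0.98, -1.42, -0.78 and -1.23 on the control arrays and -1.28, -1.10, -0.93 and -0.72 on the Western arrays (in the order male 1, male 2, female 1, female 2 here and below). The arrays overlapped, and the difference was 0.09 ± 0.19 SE (n = 4 per diet, limma adjusted p = 0.999). Mcm6 had 3.03, 3.26, 3.68 and 3.19 on the control and 2.93, 3.07, 2.89 and 3.65 on the Western diet. Its highest values came from the library labelled Control female 1 and Western female 2, one of each diet, and it differed by -0.15 ± 0.23 SE (adjusted p = 0.999). The E2F motifs of Mcm6 are shown above. All 6 Mcm genes were higher on Western female 2 than on Western female 1, by 0.21 (Mcm2) to 1.13 (Mcm5). Cdc6 loads the Mcm helicase onto DNA. It had -4.36, -4.90, -4.52 and -4.46 on the control and -5.15, -4.67, -5.33 and -4.24 on the Western diet, a difference of -0.29 ± 0.30 SE (adjusted p = 0.994). After quantile normalization this turned to 0.47, and its second probe, well above background on 3 arrays, gave -0.10.

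Pcna encodes the sliding clamp of the DNA polymerases and varied least, by 0.34 log2 units over the 8 arrays. It had 3.11, 3.00, 3.26 and 3.19 on the control and 3.14, 3.35, 3.16 and 3.23 on the Western diet. The difference was 0.08 ± 0.14 SE (adjusted p = 0.999), with a 95% interval of -0.25 to 0.41. Ccne1 (cyclin E1), which drives entry into S phase, had -0.80, -0.19, -0.01 and -0.88 on the control and -0.56, -0.83, -1.04 and -0.45 on the Western diet. It differed by -0.25 ± 0.28 SE (adjusted p = 0.994). Its second probe, well above background on 3 arrays, gave -1.44, and the mean of both probes gave -0.844. E2f1, the transcription factor of the replication genes, ranged over 1.23 log2 units, from -2.32 on Western female 1 to -1.09 on the library labelled Control female 1. Among the enzymes that supply nucleotides, thymidine kinase (Tk1) had 1.04, 0.90, 1.36 and 0.79 on the control and 0.68, 0.78, 0.59 and 1.32 on the Western diet, a difference of -0.18 ± 0.23 SE (adjusted p = 0.998). Rrm1 and Rrm2, the subunits of ribonucleotide reductase, and the thymidylate synthase gene Tyms varied by 0.75, 0.70 and 0.72 log2 units over the arrays, with Tyms highest on Control male 1 and lowest on Control male 2.

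Among the mitosis genes, Mki67 encodes the proliferation marker Ki-67. It had 1.56, 1.42, 1.39 and 0.98 on the control and 1.25, 1.68, 1.07 and 1.20 on the Western diet, and the difference was -0.04 ± 0.18 SE (adjusted p = 0.999). Its second probe, well above background on all arrays, gave -0.32. Top2a, the topoisomerase that untangles copied chromosomes, had 0.20, -0.43, -0.49 and -1.16 on the control and -0.48, -0.91, -1.33 and -0.15 on the Western diet. Western female 2 had the highest Western value and Western female 1 the lowest of all, and the diet difference was -0.25 ± 0.34 SE (adjusted p = 0.998). Birc5, a subunit of the chromosomal passenger complex, was highest on Control male 1 with each of its 3 probes.

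Cdk1 is the kinase that starts mitosis, with Ccnb1 and Ccnb2 (cyclins B) as its partners. Cdk1 had -0.82, -2.14, -1.13 and -2.09 on the control and -1.30, -1.53, -1.99 and -1.48 on the Western diet. The control arrays split into 2 high and 2 low values around the Western range, and the difference was -0.03 ± 0.37 SE (adjusted p = 0.999). It was 0.54 without Control male 1 and the library labelled Control female 1. Ccnb1 had 0.82, -0.25, 0.33 and -0.02 on the control and 0.15, -0.14, -0.72 and 0.33 on the Western diet, a difference of -0.32 ± 0.34 SE (adjusted p = 0.994). Its 3 probes gave -0.32, -0.35 and -0.57. Ccnb2 and Ccna2 (cyclin A2) were likewise highest on Control male 1 and lowest on Western female 1.

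Foxm1, a transcription factor of mitosis genes, differed from the other mitosis genes in its order of arrays. It had -1.61, -2.23, -2.46 and -1.57 on the control and -2.04, -2.15, -2.64 and -2.13 on the Western diet, a difference of -0.27 ± 0.28 SE (adjusted p = 0.994). With the probes tested it was highest on Control female 2, the only one of the 34 genes to be so (31.9% of all genes were). A further Ccnb1 probe, well above background on all 8 arrays, was highest there too. The second Foxm1 probe, well above background on 0 arrays, was highest on Control male 1. Plk1 and Aurka, kinases of the spindle, were highest on Control male 1. Aurkb, the kinase of the chromosomal passenger complex, was well above background only on Control male 1, Western male 1 and the library labelled Control female 1. It was well above background on 0 of 2 Western female arrays, so no fold is given for it in females. Its signal is counted in the numbers of lower genes, and without it 26 of 33 genes were lower for the diet and 27 of 33 in females.

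Cdc20 activates the ubiquitin ligase that ends mitosis, and Ube2c supplies that ligase with ubiquitin. Cdc20 had 2.29, 1.93, 2.42 and 1.93 on the control and 1.90, 1.60, 1.52 and 2.28 on the Western diet. It had the smallest p of the 34 genes and was 1.25-fold lower on the Western diet (log2 -0.32 ± 0.24 SE, limma adjusted p = 0.994). On the Western diet 3 arrays lay below the control arrays, and Western female 2 lay among them. Bub1b, of the spindle checkpoint, was -1.49 on Control male 1 and -2.37 to -2.31 on the other control arrays, against -2.72 to -1.53 on the Western diet. Bub1, its partner in the checkpoint, was also highest on Control male 1.

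Among genes of the spindle and the kinetochore, where microtubules attach, Nusap1 had -0.34, -1.07, -0.96 and -0.87 on the control and -0.94, -1.17, -1.56 and -0.71 on the Western diet. The difference was -0.28 ± 0.27 SE (adjusted p = 0.994). Kif11, the motor that separates the spindle poles, had -3.56, -4.11, -3.84 and -4.11 on the control and -4.04, -4.23, -4.68 and -3.70 on the Western diet, a difference of -0.26 ± 0.27 SE (adjusted p = 0.994). Both genes were highest on Control male 1 and lowest on Western female 1. Quantile normalization turned the Kif11 difference to 0.43. Kif20a (a motor of late mitosis), Cenpe (the kinetochore motor) and Cenpa (the histone of centromeres) were highest on Control male 1 as well.

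Within males, 25 of 34 genes were lower on the Western diet (52.2% of all genes), with a median of -0.26 for mitosis and -0.03 for S phase. By limma 0 of 34 passed (0% of all genes), and 0 of 34 had an unadjusted p under 0.05 (1.30% of all genes). Top2a differed by -0.58 ± 0.48 SE (adjusted p = 1), Cdc20 by -0.36 ± 0.34 SE (adjusted p = 1) and Ube2c by -0.30 ± 0.29 SE (adjusted p = 1). The second Ube2c probe, well above background on all 8 arrays, gave -0.59. Ube2c had 0.49 and 0.29 on the Control male arrays and 0.21 and -0.03 on the Western male arrays. On slide 1 alone, 31 of 34 genes were lower on Western male 1 than on Control male 1 (57.9% of all genes), with a median of -0.33. In 4 of 34 genes both Western male arrays lay below both control arrays (13.3% of all genes), and in 1 both lay above (11.6%). Control male 1 was also the array with the highest smooth muscle markers (2.99, against -0.98 on Control male 2), and without it 11 of 34 genes were lower (48.2% of all genes).

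Within females, 28 of 34 genes were lower on the Western diet (63.4% of all genes), with a median of -0.13 for mitosis and -0.04 for S phase. As labelled, the control females include the library with Y-linked transcripts at the male level. By limma 0 of 34 passed (0% of all genes), and 0 of 34 had an unadjusted p under 0.05 (5.14% of all genes). Foxm1 differed by -0.37 ± 0.39 SE (adjusted p = 0.968), Cenpe by -0.32 ± 0.36 SE (adjusted p = 0.973) and Cdc20 by -0.27 ± 0.34 SE (adjusted p = 0.977). Cenpe had 0.62 and -0.05 on the Control female arrays and -0.23 and 0.15 on the Western female arrays. A 1.5-fold difference was reached by 0 of 34 genes in either direction, against 20.4% of all genes lower and 3.91% higher. For 0 of 34 genes did the 2 diets separate in females, whereas 21.9% of all genes lay wholly lower and 9.44% wholly higher. These shares include Control female 2, the highest of the 8 arrays for 31.9% of all genes. Without it, 56% of all genes were lower in females. They also include dim genes, well above background on as few as 2 arrays, whereas 33 of the 34 were so on all 8. After quantile normalization 18 of 34 genes were lower, against 41.2% of all genes.

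The female difference had opposite directions on the 2 slides. On slide 1, 34 of 34 genes were lower on Western female 1 than on the library labelled Control female 1 (53.9% of all genes), with a median of -0.77. Y-linked transcripts of that library were at the male level, so this is not shown to be a difference between 2 female arrays. On slide 3, 33 of 34 genes were higher on Western female 2 than on Control female 2 (64.6% of all genes were lower), with a median of 0.50. Control female 2 was the array with 75.6% of probes well above background, and the part of this in the slide 3 values was not tested. Aurkb was not above background on either array of slide 3, and without it 32 of 33 genes were higher. E2f1 differed by -1.23 on slide 1 and 0.96 on slide 3, Mcm5 by -1.15 and 0.88, and Top2a by -0.85 and 1.00. With the probes tested Foxm1 was the exception, at -0.17 and -0.56. A further Ccnb1 probe, well above background on all 8 arrays, was also lower on the Western array of both slides. It had -2.79 (control) and -3.81 (Western) on slide 1, and -2.18 and -2.50 on slide 3. These are differences between single arrays and have no test. Without the library labelled Control female 1, 9 of 34 genes were lower in females (62.9% of all genes), and without Western female 1, 5 of 34 (63.7%). Over all genes, limma called 377 for the diet in females without the library labelled Control female 1, of which 0 were among the 34.

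**Figure D4:**
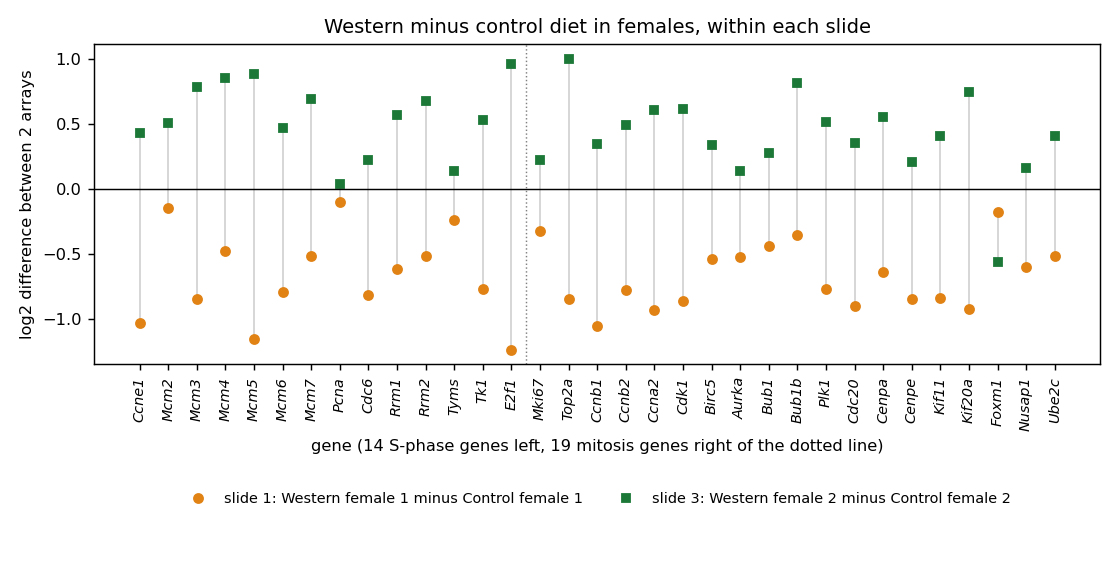
Western minus control log2 difference for arrays labelled as female, for each gene but Aurkb (horizontal axis, 33 genes), with grey lines joining the values of a gene. Orange circles are Western female 1 minus the library labelled Control female 1 (slide 1), which had Y-linked transcripts at the male level. Green squares are Western female 2 minus Control female 2 (slide 3). All 33 circles lie below 0, and all squares but that of Foxm1 (-0.56) lie above 0.

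The diet difference was not shown to differ between the sexes. Here too the library labelled Control female 1 counts as female. By limma 0 of 34 genes passed for the difference, females minus males (0% of all genes), and 0 of 34 had an unadjusted p under 0.05 (1.62% of all genes). The smallest p belonged to Top2a (0.66 ± 0.68 SE), Bub1b (0.58 ± 0.72 SE) and Pcna (-0.22 ± 0.27 SE), each with an adjusted p of 1. The intervals were wide, with a median half-width of 1.30 log2 units, and 2 of 34 lay within 2-fold.

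The second comparison set females against males. By limma 0 of 34 genes passed (0% of all genes), and 0 of 34 had an unadjusted p under 0.05 (3.87% of all genes). Females were lower for 25 of 34 genes, against 37.6% of all genes, with a median of -0.17 for mitosis and 0.03 for S phase, where all genes had 0.08. After quantile normalization 54.1% of all genes were lower in females. Mki67 differed by -0.32 ± 0.18 SE (limma adjusted p = 0.903), with means of 1.16 in females and 1.48 in males. Mcm2 differed by 0.28 ± 0.19 SE and Mcm6 by 0.28 ± 0.23 SE (adjusted p = 0.903 each). The groups overlapped for all 34 genes, against 1.02% of all genes wholly lower and 2.01% wholly higher in females. This comparison counts the library labelled Control female 1 as female. Without Western female 1, 11 of 34 genes were lower in females, without Control male 1 or Control female 2, 14, and without the library labelled Control female 1, 28. Of all genes, 40%, 36%, 44% and 36.5% were lower in the same order.

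Other genes of the cell cycle were taken from lists of known function, and by limma 0 passed for the diet in any of these lists. Of 37 further replication genes measured, 21 were lower and 16 higher on the Western diet (median -0.03, against 60.2% of all genes lower). Chek1, the kinase of the replication checkpoint, had -0.48 ± 0.27 SE (7 arrays well above background), and the polymerase subunit gene Pola2 had -0.29 ± 0.17 SE. Cdc45, which joins the Mcm helicase, had -0.38 ± 0.28 SE, and Ccne2 (cyclin E2) had 0.68 ± 0.49 SE but was well above background on 4 of 8 arrays. The adjusted p of each was 0.994. Quantile normalization turned Chek1, Pola2 and Cdc45 to 0.21, 0.03 and 0.26.

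Of 45 further mitosis genes, 35 were lower and 10 higher (median -0.15, against 60.2% of all genes lower). Without Control male 1, 21 of 45 were lower, without Western female 1, 15, without the library labelled Control female 1, 26, and after quantile normalization, 24. Of all genes, 57.2%, 60.7%, 60.5% and 41.4% were lower in the same order. The motor genes Kif4 and Kif2c had -0.32 ± 0.20 SE and -0.46 ± 0.32 SE, Espl1 (separase, which cuts cohesin) -0.56 ± 0.39 SE and Anln (of the contractile ring) 0.44 ± 0.35 SE. The adjusted p of each was 0.994. The 45 genes had their lowest mean on Western female 1 (-0.46) and their highest on Control male 1 (0.43). Of 11 measured genes in a list of cyclins and kinases of G1, the phase before S phase, and of activators, 6 were lower (median -0.04). The list includes Mybl2 (B-Myb), which acts with MuvB on mitosis genes. Mybl2 had -0.31 ± 0.17 SE, Ccnd2 (cyclin D2) -0.41 ± 0.26 SE, Ccnd1 (cyclin D1) -0.14 ± 0.23 SE and Myc 0.19 ± 0.31 SE.

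Of 18 inhibitors of the cell cycle, 7 were lower and 11 higher (median 0.08), and their mean varied little between arrays, from -0.06 to 0.09. Rbl2, a relative of the retinoblastoma protein, had 0.33 ± 0.15 SE. The Western arrays (-1.78 to -1.51) lay just above the control arrays (-2.08 to -1.80). Of all genes 0.827% showed a separation in this direction, but Rbl2 was named for its small p on these same arrays. The repressors E2f6 and E2f5 had 0.38 ± 0.18 SE and 0.26 ± 0.14 SE, and all 3 had an adjusted p of 0.994.

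Cdkn2a, the locus of the inhibitors p16 and p19Arf, had the smallest p of these lists. It had -3.41, -2.85, -3.18 and -2.45 on the control and -2.91, -3.05, -4.29 and -4.55 on the Western diet. The Western female arrays were the 2 lowest of the 8. The difference was -0.73 ± 0.23 SE over both sexes (limma adjusted p = 0.994), 0.15 in males (adjusted p = 1) and -1.61 in females (adjusted p = 0.728). In contrast to 33 of the 34 genes with the probes tested, the female difference had 1 direction on both slides, at -1.11 on slide 1 and -2.10 on slide 3. This is no particular trait of Cdkn2a. In 21.9% of all genes both Western female arrays lay below both control female arrays, as here. The difference between the sexes was -1.75 (limma adjusted p = 1). Without Control male 1 and the library labelled Control female 1 the female difference was -1.97 and passed (adjusted p = 0.0487), an alternative chosen after seeing the data. Its adjusted p in females ranged from 0.0571, without the library labelled Control female 1 alone, to 1 over the other alternatives.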

How the data were processed

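Each of the 8 deposited files held 1 Agilent array of design 026655. Per the file headers, Feature Extraction 10.7.3.1 had turned the scans into processed signals, a background-subtracted linear intensity per spot, and nothing in the headers records scaling of one array to another. Left out were 1377 control spots and, on each array, 94 to 216 spots marked as outliers; no spot was saturated. Log2 signals were taken relative to the 75th percentile of each array. Probe accessions were matched to RefSeq symbols (GRCm38.p6), which named 26412 of 39429 probes. A probe had to be well above background on 2 or more arrays, and the brightest such probe stood for its gene. Of the 34 genes, 33 were well above background on all 8 arrays and 8 had several probes.

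All 8 arrays entered 1 model of the 4 group means (limma 3.58.1, R 4.3.3), a procedure tested on simulated data, with Benjamini-Hochberg adjustment over all 21303 genes (threshold 0.05). Errors are standard errors (SE). Slide 1 held replicate 1 of each group, slide 2 held Western male 2, and slide 3 held the other 3 arrays. Slide 3 was scanned on another day than slides 1 and 2. The 34 genes, though taken by name, and the gene lists were chosen with earlier results of these data known. Values on each array are given for 6 standard markers, the 5 genes of each set with the smallest p for diet and, in part, the 3 with the smallest p in other comparisons. Of each other list the 4 genes with the smallest p are named. Alternatives changed the normalization, background, filter, probe, block and arrays. The normexp alternative used the median spot signal in place of the mean signal. The number of arrays limits the precision.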

Additional observations from a re-analysis of the deposited data

Results flagged for a closer look

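Of 72 checks (each of the 34 genes and the means of both sets, over the 4 arrays of each diet), 1 found an array far from the others, where chance alone gives about 1 in 20. Bub1b was -1.49 on Control male 1, while the other control arrays lay between -2.37 and -2.31, a gap of 0.926 of the whole range. Control male 1 also had the highest smooth muscle (2.99) and fibroblast (2.24) marker means, and their part in this value was not tested.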

How the results depend on the processing

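For the diet and for its effect in males, 0 genes passed by limma under all alternatives fitted, as with no alternative. For the diet effect in females limma called 0 to 377 genes when 1 array was left out (2 without Control female 2, and 377 without the library labelled Control female 1) and 677 when that library and Control male 1 were both left out, an alternative chosen after seeing the data. In that setting the sex comparison called 1 gene, and leaving out 1 array gave 0 to 3, and 0 to 2 for the difference between the sexes. None of the 34 genes passed in any of these settings. Whether replicate numbers pair the arrays was not settled, and slide 1 held replicate 1 of each group. The gaps between replicates were correlated over genes, with r over 0.1 in 2 of 6 pairs of groups (range -0.119 to 0.352). These were Control male with Western male (0.352) and Control female with Western female (0.182). So few correlations cannot exclude pairing. With the replicate number as a block, 0 genes passed for the diet (smallest adjusted p 0.281, 1036 genes at an unadjusted p under 0.05), and the medians were -0.006 for S phase and -0.195 for mitosis. With the slide as a block, Western male 2 added nothing, being alone on its slide. Over all genes, 71.4% were lower on the Western diet with no filter on dim probes (median -0.18).

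Leaving out each array in turn, the number of the 34 genes that were lower ranged from 15 to 32 for the diet, 11 to 31 in males, 5 to 33 in females, 4 to 32 for the difference and 11 to 31 for sex. The S-phase medians ranged from -0.23 to 0.13, -0.12 to 0.041, -0.333 to 0.32, -0.373 to 0.393 and -0.147 to 0.143 in the same order. The mitosis medians ranged from -0.401 to -0.009, -0.568 to 0.095, -0.478 to 0.158, -0.295 to 0.458 and -0.349 to 0.024. Without Control male 1 and the library labelled Control female 1, 9 of the 34 genes were lower for the diet, 11 in males and 9 in females, with S-phase medians of 0.32 in females and 0.311 for the difference. Within slide 1 the S-phase median was -0.407 for the diet, -0.692 in females and -0.405 for the difference, the mitosis median in females was -0.772, and 30 genes were lower for the difference. Within slide 3 the female medians were 0.55 and 0.408, with 1 gene lower. Quantile normalization left 18 genes lower in females and 7 for the difference, and scaling to the epithelial markers left 8 for the difference.

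Some genes turned direction. For the diet, quantile normalization gave Cdc45 0.259, Cdc6 0.465, Cdk1 0.136, Chek1 0.207, Kif11 0.43, Kif4 0.009 and Pola2 0.034, normexp gave Ccne2 -0.008, the slide block gave Mcm2 -0.005, and slide 1 alone gave Mcm2 -0.223, Myc -0.011 and Pcna -0.034. Without Control male 1 and the library labelled Control female 1, Ccnb1 had 0.042, Ccnd1 0.093, Cdk1 0.54, Mki67 0.098 and Top2a 0.07 for the diet, Cdkn2a -0.133 in males and Cenpe 0.013 in females. Within slide 3 Cdc20 had 0.355 and Cenpe 0.204 in females, and within slide 1 Top2a had -0.164 for the difference. With 1 array left out, values for the diet ranged from -0.278 to 0 (Ccnd1), -0.362 to 0.299 (Cdk1), -0.017 to 0.206 (Mcm2), -0.344 to 0.038 (Mcm6), -0.147 to 0.067 (Mki67), -0.099 to 0.485 (Myc), -0.363 to 0.005 (Tk1) and -0.548 to 0.042 (Top2a). The same ranges were -0.133 to 0.428 for Cdkn2a in males, -0.653 to 0.108 for Cdc20, -0.653 to 0.013 for Cenpe and -0.816 to 0.079 for Foxm1 in females, and -0.02 to 1.176 for Bub1b in the difference. Without turning, they were -0.585 to -0.047 (Ccnb1), -0.506 to -0.126 (Cdc20), -0.471 to -0.035 (Ccne1), -0.559 to -0.012 (Cdc6), -0.497 to -0.049 (Foxm1), -0.502 to -0.012 (Kif11) and -0.494 to -0.07 (Nusap1) for the diet, -0.896 to -0.272 (Top2a) and -0.543 to -0.175 (Cdc20) in males, and 0.072 to 1.252 (Top2a) in the difference. The cause of these changes was not tested.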
